A study of Mus musculus with 18 samples.

Results

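Sytl2, Gbp7, Sgpp2 and Dnm3 are 4 genes that had been seen to differ between mouse embryonic fibroblast (MEF) lines in which no effector had yet been induced. They were listed by name from a table of 47937 gene IDs, and all 4 were among the 16216 genes that passed the filter on low counts. They were selected on their levels in the uninduced libraries of 3 lines, so differences between uninduced lines are described here and carry no test. A change on induction uses the same uninduced libraries as its baseline and is described in the same way. The induced lines were compared with each other by a test, because the genes were chosen for differences between uninduced lines. The rule of choice names the induced libraries too, for a later comparison. Earlier results of all libraries were known when the 4 were listed.

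The study asked what follows when transcription of the major satellite repeat, the tandem repeat beside mouse centromeres, is raised or lowered. Per the labels, each line carried a dCas9-based effector whose expression could be switched on and which was directed to that repeat. dCas9 is a Cas9 that binds DNA without cutting it. The effector was named dCas9-control in the control line, dCas9-KM in the repressor line and dCas9-VPR in the activator line. Below, effector lines means the repressor and activator lines only. Every line was grown under hygromycin in serum free of tetracycline, and each had 3 untreated and 3 doxycycline-treated libraries, 18 in all. Doxycycline was given at 10 ng/ml for 24 h to the control line, at 100 ng/ml for 24 h to the repressor line and at 10 ng/ml for 6 h to the activator line. Dose or time therefore differed together with the effector, and their parts in a difference between induced lines cannot be told apart. Not given in the sources used here were the guide RNA, the promoter of the effector and whether a line is 1 clone. Library numbers in the labels do not tell separate cultures from repeats of 1 culture, and the p-values therefore cover the spread between libraries, possibly a technical one.

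The 4 genes encode proteins with different functions. Sytl2 encodes synaptotagmin-like protein 2, an effector that binds the small GTPase Rab27 and tethers secretory vesicles to the plasma membrane. Gbp7 encodes a guanylate-binding protein, one of a family of large GTPases that interferon induces and that act against intracellular pathogens. Sgpp2 encodes sphingosine-1-phosphate phosphatase 2, an enzyme of the endoplasmic reticulum that removes the phosphate of sphingosine-1-phosphate, a signalling lipid. Dnm3 encodes dynamin 3, a large GTPase that pinches vesicles off membranes and is best known from brain and testis. Dynamins and guanylate-binding proteins belong to the same superfamily, but one remodels membranes and the other serves cell-autonomous immunity.

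In GENCODE M21 coordinates of GRCm38, all protein-coding, Sytl2 (ENSMUSG00000030616.15) lies at chr7:90302252-90410719 on the plus strand and Gbp7 (ENSMUSG00000040253.15) at chr3:142530342-142550149 on the plus strand. Sgpp2 (ENSMUSG00000032908.9) lies at chr1:78310345-78420289 on the plus strand and Dnm3 (ENSMUSG00000040265.16) at chr1:161982453-162478034 on the minus strand. The promoters of 3 of the 4 genes were found in RefSeq (GRCm38.p6) and are shown because Gbp7 and Dnm3 were low in both effector lines while Sgpp2 was high in the repressor line. They are the 250 bases upstream of the RefSeq start at chr3:142530086-142530335 (plus strand) for Gbp7, chr1:78310096-78310345 (plus strand) for Sgpp2 and chr1:162478035-162478284 (minus strand) for Dnm3. Each is written 5′ to 3′ on the gene's strand, and capitals mark matches to the motifs described after them.
Gbp7: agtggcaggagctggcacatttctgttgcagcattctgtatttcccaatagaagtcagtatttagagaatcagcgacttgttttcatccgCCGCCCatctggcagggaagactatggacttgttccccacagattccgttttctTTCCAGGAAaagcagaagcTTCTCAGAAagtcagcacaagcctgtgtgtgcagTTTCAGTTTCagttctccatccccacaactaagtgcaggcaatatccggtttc
Sgpp2: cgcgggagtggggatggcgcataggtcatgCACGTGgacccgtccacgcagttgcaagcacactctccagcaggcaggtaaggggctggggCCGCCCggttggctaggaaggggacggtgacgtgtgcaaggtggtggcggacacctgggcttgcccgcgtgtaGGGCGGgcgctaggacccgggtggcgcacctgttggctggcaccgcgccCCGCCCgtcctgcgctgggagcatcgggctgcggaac
Dnm3: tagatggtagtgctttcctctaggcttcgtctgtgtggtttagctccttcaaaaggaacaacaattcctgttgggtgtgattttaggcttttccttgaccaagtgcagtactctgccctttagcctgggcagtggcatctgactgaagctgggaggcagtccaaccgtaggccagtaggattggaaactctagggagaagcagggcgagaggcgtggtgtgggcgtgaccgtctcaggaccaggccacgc

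The Gbp7 window held 1 match to the interferon-stimulated response element, GAAA and again GAAA with 2 bases between, read on the opposite strand as TTTCAGTTTC at −53 to −44 from the start. It also held 2 matches to the gamma-activated site TTCNNNGAA, TTCCAGGAA at −106 to −98 and TTCTCAGAA at −87 to −79. Of 32841 mouse promoter windows of the same length, 2.98% held the first motif and 7.02% the second, on either strand. The Sgpp2 window held 1 E-box CACGTG at −220 to −215, found in 6.02% of windows. It also held 3 matches to the GC box GGGCGG or its complement CCGCCC, and the Gbp7 window held 1; 32.7% of windows had at least 1. The Dnm3 window held none of the 7 motifs searched, the others being the AP-1 site TGANTCA, the cAMP response element TGACGTCA and the TATA box TATAAA. These motifs do not overlap one another in the 3 windows. GC content was 47.2% for Gbp7, 70.8% for Sgpp2 and 54.0% for Dnm3 beside a median of 52.4%, and the windows held 5, 24 and 7 CpG dinucleotides beside a median of 6. The matches describe letters in these windows and are not evidence of binding.

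Libraries held between 14928765 and 25262912 counts. The induced activator libraries stood apart, with 22641 to 23420 genes with a count and 0.920% to 0.974% of counts on mitochondrially encoded genes, against 20107 to 21331 genes and 0.582% to 0.676% in the other 15. Scaling by TMM set the median log2 difference of all genes between the induced activator and control lines to −0.01, scaling by total counts to −0.25 and scaling by mitochondrially encoded genes to −0.79. Of the genes called there, 49.96%, 32.05% and 9.78% were then higher, so differences that involve these libraries are relative to the median gene. Fibroblast markers summed to between 19566 and 25273 CPM (counts scaled to the TMM-adjusted library size) over the 18 libraries, and of 12 markers only Thy1 had no count in 5 of the 6 groups. Summed epithelial markers were at 3.25 to 4.70 CPM with Epcam at 0 in every group, and summed melanocyte markers at 1.09 to 2.60 CPM with Dct and Tyr at 0 in every group. Macrophage and leukocyte markers summed to 6.70 to 11.1 CPM, with Tyrobp at 0 in every group. Endothelial markers summed to 3.70 to 5.64 CPM except in the induced activator line, at 26.6 to 33.8 CPM with Tie1, Emcn and Cldn5 at 0. Of these 10 markers 4 were tested, and all 4 were called higher on induction in that line, beside 75.3% of all genes called. Neuron markers summed to 22.6 to 55.7 CPM, with Rbfox3 and Snap25 at 0 in every group. Muscle markers summed to 6.71 to 13.2 CPM, with Myod1 at 0 in every group. In the repressor line, where Sytl2 and Sgpp2 were high before induction, fibroblast markers summed to 22819 to 23311 CPM uninduced and 19566 to 19898 CPM induced. Of 10 tested, 4 were higher there than in the uninduced control line, beside 1.56% of all genes called. On induction in that line 8 of the 10 fell, beside 9.81% of all genes called. Neuron markers summed to 34.7 to 36.9 CPM in that line uninduced and 54.4 to 55.7 induced, with Rbfox3, Map2 and Snap25 at 0 in both. Of the 8 neuron markers, 2 were tested, and 1 was called higher on induction there. The part of these markers in the values of the 4 genes was not tested. In such bulk libraries, fewer cells that express a gene and less of its RNA per cell cannot be told apart.

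Sytl2, the Rab27 effector, was high in the uninduced repressor line alone. Its level there was 7.25, 7.78 and 8.04 CPM in the 3 libraries, from 148, 174 and 148 counts. The uninduced control libraries had 2.05, 2.30 and 2.76 CPM and the uninduced activator libraries 2.53, 2.07 and 2.86 CPM. Every repressor library lay above every library of the other uninduced lines, and those 2 lines overlapped. The repressor line was 3.29-fold above the control line (log2 fold change 1.72, SE 0.14) and 3.13-fold above the activator line (activator minus repressor −1.65, SE 0.14). The activator and control lines were within 1.05-fold of each other (log2 fold change 0.07, SE 0.18, 95% interval −0.29 to 0.43).

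Sgpp2, the sphingosine-1-phosphate phosphatase, was also highest in the repressor line, at a lower count. The uninduced repressor libraries had 2.16, 1.92 and 1.30 CPM, from 44, 43 and 24 counts. The uninduced control libraries had 0.651, 0.695 and 0.328 CPM and the uninduced activator libraries 0.422, 0.621 and 0.547 CPM, from 5 to 16 counts each. The lowest repressor library was still above the highest of the other 6. The repressor line was 3.08-fold above the control line (log2 fold change 1.62, SE 0.28), and the activator line lay below the repressor line by a log2 value of −1.77 (SE 0.28). The activator line against the control line gave −0.15 (SE 0.36, 95% interval −0.87 to 0.57).

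Gbp7, the interferon-inducible GTPase, was high in the control line and low in both others. The uninduced control libraries had 2.61, 3.61 and 2.69 CPM, from 56, 83 and 41 counts. The repressor libraries had 0.637, 0.313 and 0.109 CPM, from 13, 7 and 2 counts, and the activator libraries 0.192, 0.414 and 0.365 CPM, from 5, 10 and 6 counts. No library of either effector line reached a control library. Against the control line, the repressor line was 8.23-fold lower (log2 fold change −3.04, SE 0.29) and the activator line 9.36-fold lower (−3.23, SE 0.29). The 2 effector lines overlapped (activator minus repressor −0.19, SE 0.47, 95% interval −1.12 to 0.75). Without uninduced repressor library 1 the difference from the control line was −3.73, as the other 2 repressor libraries held 7 and 2 counts.

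Dnm3, the dynamin, was, like Gbp7, highest in the control line, with a smaller difference. The uninduced control libraries had 1.21, 1.69 and 1.25 CPM, from 26, 39 and 19 counts. The repressor libraries had 0.490, 0.403 and 0.489 CPM and the activator libraries 0.575, 0.455 and 0.547 CPM, each from 9 to 15 counts. Again the control libraries did not overlap with those of either effector line. The repressor line was 3.04-fold below the control line (log2 fold change −1.60, SE 0.32) and the activator line 2.65-fold below it (−1.41, SE 0.31). The activator line against the repressor line gave 0.19 (SE 0.39, 95% interval −0.59 to 0.97).

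**Figure D1:**
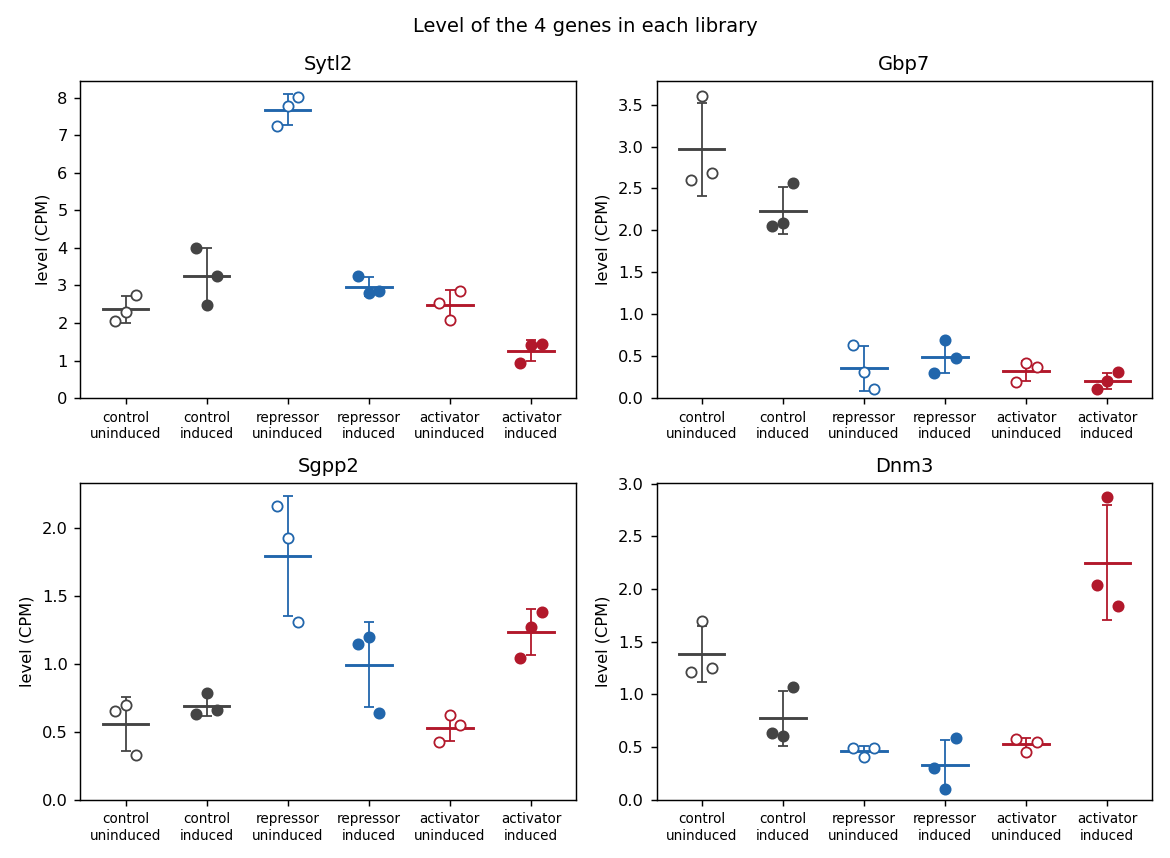
Level of each of the 4 genes in CPM in every library (points; open uninduced, filled induced), with group mean (line) and SD (bar), n = 3 libraries per group. Sytl2 and Sgpp2 are highest in the uninduced repressor line, Gbp7 is above 2 CPM in the control line only, and Dnm3 is highest in the induced activator line.

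The listed genes thus formed 2 patterns before induction, with Sytl2 and Sgpp2 high in the repressor line and Gbp7 and Dnm3 high in the control line. Between the uninduced repressor and control lines, 253 genes (1.56% of those tested) passed an adjusted p of 0.05 and 25 (0.154%) were also at least 2-fold apart, 15 higher and 10 lower in the repressor line. Ranked by size among these 25, Gbp7 was at place 6, Sytl2 at 13, Sgpp2 at 15 and Dnm3 at 16. The activator line differed more widely, with 3157 genes (19.5%) called against the control line and 3426 (21.1%) against the repressor line. Of 92 genes (0.567%) called and at least 2-fold apart between the uninduced activator and control lines, Gbp7 was at place 7 and Dnm3 at 49. Of 131 (0.808%) between the uninduced activator and repressor lines, Sgpp2 was at place 43 and Sytl2 at 51. Libraries of the 2 groups did not overlap for 18.4% of all genes between the repressor and control lines, 33.4% between the activator and control lines and 35.8% between the activator and repressor lines. These counts and places come from the contrasts that chose the 4 genes. The control libraries enter both differences from the control line, and the repressor libraries both differences from the repressor line, so agreement between such differences is partly shared data.

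Gbp7 was also low in both effector lines after induction, where the test applies. The induced control libraries had 2.05, 2.09 and 2.56 CPM, the induced repressor libraries 0.302, 0.697 and 0.477 CPM and the induced activator libraries 0.110, 0.200 and 0.307 CPM. All 3 control libraries lay above all 6 others. The induced repressor line was 4.42-fold lower than the induced control line (edgeR, log2 fold change −2.14, SE 0.29, adjusted p = 1.73e-08). For the induced activator line the difference was 10.5-fold (−3.39, SE 0.36, adjusted p = 3.66e-14). The 2 effector lines overlapped, with counts of 5 to 14 and 2 to 6 per library. Their difference was −1.25 (SE 0.52, adjusted p = 0.0252 by edgeR). It was not called without induced repressor library 2 or induced activator library 1, with an adjusted p of up to 0.175.

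Dnm3 kept its place below the control line in the repressor line and changed sides in the activator line. The induced control libraries had 0.632, 0.609 and 1.07 CPM and the induced repressor libraries 0.302, 0.0996 and 0.583 CPM, from 5, 2 and 11 counts. These groups did not overlap, but the highest repressor and lowest control library were close. The induced repressor line was 2.39-fold lower (edgeR, log2 fold change −1.26, SE 0.40, adjusted p = 0.0277). Without induced control library 3, or induced repressor library 1 or 2, this difference was not called, and over single libraries left out it ranged from −2.00 to −0.79 with adjusted p from 0.00576 to 0.29. The induced activator libraries had 2.04, 2.87 and 1.84 CPM, from 37, 43 and 36 counts, above every other library of the study. Their line was 2.80-fold above the induced control line (log2 fold change 1.49, SE 0.26, adjusted p = 4.36e-07) and 6.70-fold above the induced repressor line (2.74, SE 0.33, adjusted p = 7.43e-12), both by edgeR.

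Sytl2 no longer stood out in the induced repressor line. Its induced repressor libraries had 3.26, 2.79 and 2.86 CPM, inside the range of the induced control libraries at 4.003, 2.48 and 3.26 CPM. The difference was −0.12 (SE 0.16, 95% interval −0.44 to 0.21, adjusted p = 0.745 by edgeR). The induced activator libraries had 0.935, 1.40 and 1.43 CPM, below every other library of the study. The induced activator line was 2.56-fold lower than the induced control line (log2 fold change −1.35, SE 0.20, adjusted p = 6.85e-09) and 2.35-fold lower than the induced repressor line (−1.24, SE 0.21, adjusted p = 2.69e-07).

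Sgpp2 was not shown to differ between the induced repressor and control lines. The induced repressor libraries had 1.15, 1.20 and 0.636 CPM and the induced control libraries 0.632, 0.783 and 0.661 CPM, so that the lowest repressor library lay among the control libraries. The difference was 0.51 (SE 0.31, 95% interval −0.10 to 1.12, adjusted p = 0.339 by edgeR). The induced activator libraries had 1.05, 1.27 and 1.38 CPM, above all control libraries and overlapping with the repressor libraries. The induced activator line was 1.77-fold above the induced control line (log2 fold change 0.82, SE 0.30, adjusted p = 0.00971). That call was lost with scaling by total counts (0.59, adjusted p = 0.0649) or by mitochondrially encoded genes (0.05, adjusted p = 0.888), and without induced activator library 3 (adjusted p = 0.0519). Against the induced repressor line the difference was 0.31 (SE 0.28, 95% interval −0.25 to 0.88, adjusted p = 0.315).

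**Figure D2:**
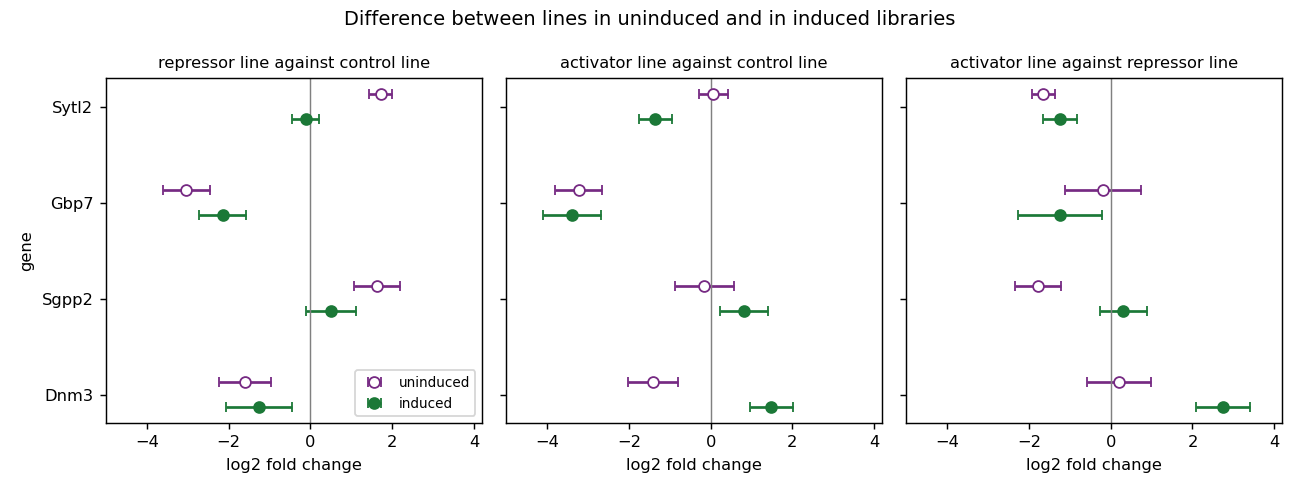
Log2 fold change between lines for the 4 genes in uninduced libraries (open) and in induced libraries (filled), with 95% intervals from the edgeR fit, one panel per pair of lines. Open points come from the libraries that chose the 4 genes, so their intervals are a description and not a test. The filled point of Sytl2 lies at −0.12 in the repressor against control panel, where the open point is at 1.72, and Dnm3 changes sides in the activator against control panel, from −1.41 to 1.49.

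In number, 2 of the 4 genes were called between the induced repressor and control lines, where 10.9% of all tested genes were called. Between the induced activator and control lines all 4 were called, beside 76.1% of all genes, and between the induced activator and repressor lines 3 of 4, beside 75.4%. The last 2 shares lie near those of all genes. Non-overlapping groups were also common: 25.7% of all genes between the induced repressor and control lines, 76.2% between the induced activator and control lines and 75.7% between the induced activator and repressor lines.

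Seen along each line, induction went with different values for each gene. In the repressor line, Sytl2 was 2.60-fold lower in the induced than in the uninduced libraries (log2 value −1.38, SE 0.14), with no overlap. Sgpp2 was 1.82-fold lower there (−0.87, SE 0.25), also without overlap. Gbp7 (0.48, SE 0.44) and Dnm3 (−0.49, SE 0.46) had overlapping induced and uninduced libraries in that line, and Dnm3 gave −1.23 without induced repressor library 3.

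In the activator line, Dnm3 was 4.17-fold higher in the induced libraries (log2 value 2.06, SE 0.28) and Sgpp2 2.33-fold higher (1.22, SE 0.31), both without overlap. Sytl2 was 1.95-fold lower (−0.96, SE 0.21), again without overlap, and Gbp7 gave −0.58 (SE 0.56) with overlap. Scaled to mitochondrially encoded genes, these 4 values were 1.32, 0.48, −1.70 and −1.30, so their directions were the same. In the control line, Dnm3 was 1.78-fold lower (−0.83, SE 0.28) and Gbp7 1.33-fold lower (−0.42, SE 0.19), both without overlap. Sytl2 (0.46, SE 0.17) and Sgpp2 (0.25, SE 0.34) overlapped. In these lines, 9.81%, 75.3% and 0.463% of all genes were called on induction (repressor, activator and control). Induced and uninduced libraries did not overlap for 26.7% of all genes in the repressor line, 76.3% in the activator line and 15.5% in the control line.

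Ordered by mean level over the 6 groups, Sytl2 ran from 7.69 ± 0.402 CPM (SD, n = 3) in the uninduced repressor line to 1.26 ± 0.278 in the induced activator line, and the 4 groups between, at 2.37 to 3.25 CPM, overlapped with their neighbours. Gbp7 ran from 2.97 ± 0.555 in the uninduced control line, through 2.23 ± 0.283 in the induced control line, to 4 overlapping groups at 0.206 to 0.492 CPM. For Sgpp2 every group overlapped with its neighbour in the order, from 1.79 ± 0.440 in the uninduced repressor line, through 1.23 ± 0.171 in the induced activator line, to 0.530 ± 0.101 in the uninduced activator line. Dnm3 ran from 2.25 ± 0.546 in the induced activator line to 1.38 ± 0.270 uninduced and 0.772 ± 0.262 induced in the control line, each apart from the next. Below these, the uninduced activator line at 0.526 ± 0.0628 overlapped with the uninduced repressor line at 0.460 ± 0.0501, and that line with the induced repressor line at 0.328 ± 0.243 CPM.

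The same question, whether a difference between uninduced lines is found again in the induced libraries of the same lines, was put to every gene that differed so, the 4 included. Of the 25 genes called and at least 2-fold apart between the uninduced repressor and control lines, 10 (40%) were called and at least 2-fold apart in the same direction between the induced lines. They were 15.6% of the 64 genes (0.395% of all) that met this threshold there. Gbp7 and Dnm3 were among the 10, and Sytl2 and Sgpp2 were not, which leaves 8 of 21 other genes. The other 8 were Uroc1, an enzyme of histidine breakdown, Dnah6, a dynein of cilia, Ano3, Klhl13, Clstn3, Lama2, Cldn18 and 1700028E10Rik. Dnah6 was higher in the repressor line by a log2 value of 6.03 uninduced and 6.69 induced, and Uroc1 by 4.58 and 7.75. The count of 10 fell to 6 without induced repressor library 2. For the activator against the control line, 43 of 92 genes (46.7%) were found again, 1.19% of 3617 induced, Gbp7 among them, and 13 were at least 2-fold apart in the opposite direction, as Dnm3 was. For the activator against the repressor line it was 56 of 131 (42.7%), 1.57% of 3563 induced, Sytl2 among them, with 21 opposite. With 22.3% and 22% of all genes meeting the threshold between those induced lines, the last 2 counts say less about the starting differences than the first.

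**Figure D3:**
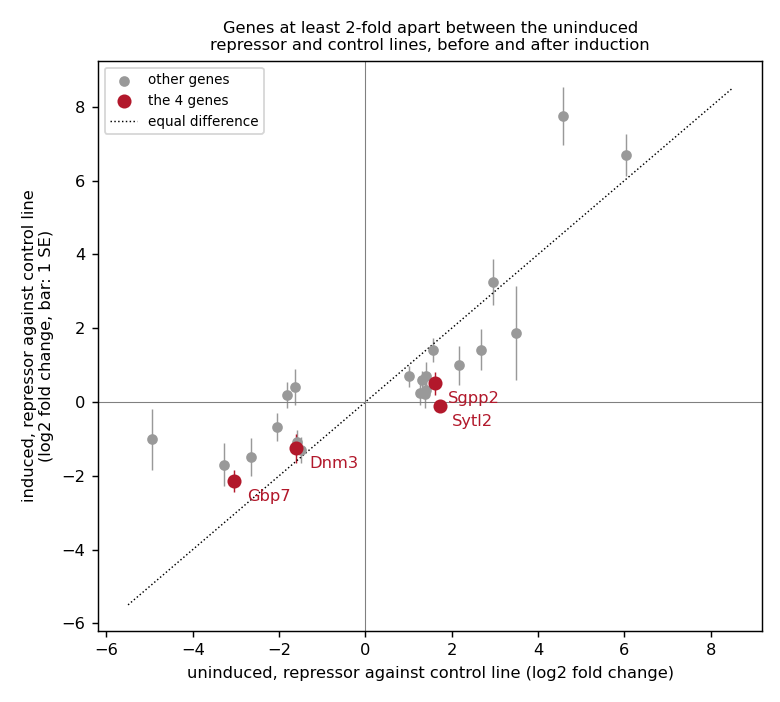
Each point is 1 of the 25 genes called and at least 2-fold apart between the uninduced repressor and control lines, with its log2 fold change in uninduced (horizontal) and induced libraries (vertical, bar 1 SE). Gbp7 (−3.04 and −2.14) and Dnm3 (−1.60 and −1.26) lie below zero on both axes, and Sytl2 (1.72 and −0.12) lies near zero on the vertical axis. Sgpp2 (1.62 and 0.51) lies above zero there, with a 95% interval of −0.10 to 1.12 in induced libraries.

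Partners and relatives of the 4 genes were compared between the uninduced repressor and control lines, where 1.56% of all genes were called. Of 12 other tested genes of the Rab27 and synaptotagmin-like list, 1 was called, Rab3d, a small GTPase of secretory vesicles (log2 fold change 0.44, SE 0.11, adjusted p = 0.0213). Of 9 other guanylate-binding and immunity-related GTPases and of 21 interferon signalling and response genes, none was called by edgeR, limma-voom or DESeq2, with 1 and 3 genes at an unadjusted edgeR p under 0.05. Of 36 sphingosine-1-phosphate and ceramide genes, Plpp1, a lipid phosphate phosphatase, was higher (0.23, SE 0.05, adjusted p = 0.011) and Ugcg, which makes glucosylceramide, lower (−0.13, SE 0.04, adjusted p = 0.0378). Of 29 dynamin and endocytosis genes none was called by the 3 tools, with 1 at an unadjusted edgeR p under 0.05. DESeq2 gave no adjusted p to 4716 genes in this comparison, so it could not call any listed gene among them. DESeq2, and edgeR scaled to mitochondrially encoded genes, called none of Rab3d, Plpp1 and Ugcg, and limma-voom did not call Ugcg. The 5 list medians lay between −0.005 and 0.04 beside 0 for all genes.

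Between the uninduced activator and control lines 19.5% of all genes were called, and the lists held more and small differences too. Scaling mattered: 45.8% of called genes were higher by TMM and 11.4% when scaled to mitochondrially encoded genes. Rab27b, a partner of Sytl2, was higher (log2 fold change 0.34, SE 0.06, adjusted p = 5.01e-06), the only edgeR call among 12, to which limma-voom added 1 gene lower. Irgm1, an immunity-related GTPase, was lower (−0.26, SE 0.05, adjusted p = 9.62e-05), the only call among 9. The interferon list had 5 of 21 lower and none higher, near the share of all genes called. By limma-voom 1 was higher and by DESeq2 none, although DESeq2 gave no adjusted p to 4087 genes in this comparison. Of the 21, 7 in all had an unadjusted edgeR p under 0.05. The lower genes included the transcription factors Stat2 (−0.28) and Irf1 (−0.19) and the antiviral gene Ifit2 (−0.26). The sphingolipid list had 2 higher and 8 lower of 36, with the sphingosine-1-phosphate transporter Spns2 lower (−0.45) and the phosphatase Plpp3 higher (0.45). The dynamin list had 4 higher and 9 lower of 29, with Bin1 higher (0.23) and Ap2a2 lower (−0.23). Beside these values the differences of Gbp7 and Dnm3 in the same comparison were −3.23 and −1.41.

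**Figure D4:**
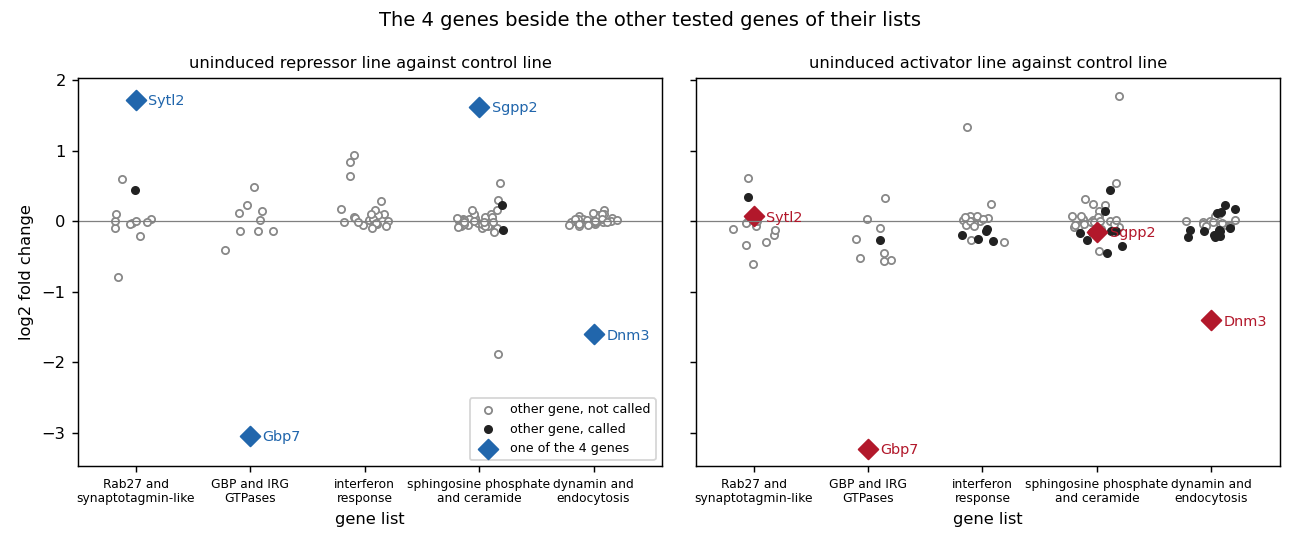
Log2 fold change of the 4 genes (diamonds) and of the other tested genes of 5 lists (circles; filled where called by edgeR), for the uninduced repressor (left) and activator line (right) against the uninduced control line. Between the repressor and control lines, the called genes other than the 4 lie between −0.13 and 0.44.

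Per kilobase of annotated exon, Sgpp2 and Dnm3 lay far below their paralogs in these fibroblasts. In the uninduced control line Sgpp2 was at 0.139 ± 0.0501 CPM per kb (SD, n = 3) beside 8.49 ± 0.219 for its paralog Sgpp1. Dnm3 was at 0.0566 ± 0.0110 beside 8.05 ± 0.425 for Dnm1 and 18.9 ± 0.736 for Dnm2, although its 24452 exon bases include alternative exons that lower a per-kilobase level. Sytl2 was at 0.170 ± 0.0257 beside 2.09 ± 0.190 for Rab27b, 0.112 ± 0.0441 for Rab27a and 0.317 ± 0.0991 for Sytl1. Gbp7 was there at 0.528 ± 0.0988 CPM per kb, within the spread of its relative Gbp2 at 0.679 ± 0.203 and above 0.117 ± 0.0433 for Gbp3 and 0.0936 ± 0.0445 for Gbp2b. In the uninduced repressor line Gbp7 was at 0.0628 ± 0.0474 while Gbp2 was at 0.785 ± 0.0872 CPM per kb. Guanylate-binding proteins are close copies in sequence, so reads may be shared between them and these levels are uncertain.

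Of the 11 tested genes that overlap the 4 genes or lie nearest on either side, edgeR called none between the uninduced repressor and control lines, beside 1.56% of all genes, and 0 had an unadjusted p under 0.05. Neither limma-voom nor DESeq2 called any, but DESeq2 gave no adjusted p to 4716 genes in this comparison and could not call those. Gbp3, 9876 bases beyond the end of Gbp7, was at 0.381 ± 0.141 CPM in the control and 0.402 ± 0.169 in the repressor line. Picalm and Crebzf beside Sytl2 gave log2 fold changes of −0.05 and 0.01. Farsb, which overlaps the end of Sgpp2 on the opposite strand, gave 0.00. Between the uninduced activator and control lines, Picalm (−0.13), Pdlim5 beside Gbp7 (−0.20), Dnm3os (−0.25) and Mettl13 beside Dnm3 (0.20) were called, 4 of 11 beside 19.5% of all genes. Between the uninduced activator and repressor lines 5 of 11 were called, beside 21.1%.

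Dnm3 has 2 tested transcripts inside it on the opposite strand, and reads of a gene and its antisense partner cannot be told apart unless counting used strand. The libraries came from a stranded kit, per the labels, but whether the counting used strand is not given. Dnm3os, a host transcript of microRNAs, was at 59.0 ± 0.706 CPM in the uninduced control line, 61.5 ± 2.24 in the repressor line and 49.6 ± 1.69 in the activator line. It fell to 17.4 ± 0.176 CPM in the induced activator line (log2 fold change −1.51, adjusted p = 2.58e-40), where Dnm3 was at its highest. The other, 2810442N19Rik, had no count in the uninduced control line and was at 1.18 ± 0.324 CPM in the induced activator line. Its part in the Dnm3 level was not tested.

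The genes whose levels most resembled each of the 4 over all 18 libraries are given as a description, since the points share lines, scaling and the split of the induced activator libraries from the rest. Among 2503 genes with enough level and range, Dnm3 was nearest to 1700028E10Rik (Pearson r = 0.957, n = 18), a gene at chr5:151368675-151432118, on another chromosome than Dnm3. Its mean levels were 1.53 CPM in the uninduced control line, 0.557 in the uninduced repressor line, 0.460 in the uninduced activator line and 2.25 in the induced activator line. Ccdc88c (0.818) and Col8a2 (0.814) followed. Sytl2 was nearest to the potassium channel gene Kcnh2 (0.853), the lipoprotein receptor gene Vldlr (0.852) and the scavenger receptor gene Scara5 (0.846), which was at 4.51 CPM in the uninduced repressor line and 2.82 in the uninduced control line. Gbp7 had no near match, with Nrg2 (0.725), C1qtnf7 (0.719) and Ccser1 (0.717) first. Sgpp2 was nearest to the glycosyltransferase gene Mgat4a (0.778), at 1.63 CPM in the uninduced repressor and 0.956 in the uninduced control line, followed by Car5b (0.627) and Pkhd1l1 (0.598). Among the 4 genes themselves, r over the same libraries ran from −0.59 for Sytl2 and Dnm3 to 0.33 for Sytl2 and Sgpp2, and was 0.12 for Gbp7 and Dnm3.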

How the data were processed

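Total RNA of 18 libraries was made into stranded, rRNA-depleted libraries and read from both ends, per the labels' protocols. The authors deposited whole-number read counts per gene, and the genome build was mm10, per the submitters' processing notes. Not given in the sources used here were the aligner, the counting tool with its annotation and strand setting, and any batch or date. Gene IDs were matched to GENCODE M21 without version (47310 of 47937 found; the other 627 held 0.0423% of counts). All libraries were fitted together, 1 coefficient per group, in R 4.3.3 with edgeR 4.0.16 (TMM, filterByExpr, robust quasi-likelihood test, 12 residual degrees of freedom), and p-values were adjusted by Benjamini-Hochberg over 16216 genes. Called means an adjusted p under 0.05. The fit was tested on simulated data, for the induced repressor against induced control comparison only. Of 50 genes changed at each fold, 74% were recovered at 1.5-fold, 88% at 2-fold and 98% at 4-fold. There were 11 false calls in all, and genes of the lowest mean counts were not among those changed. limma 3.58.1 (voom), DESeq2 1.42.0, other scalings and filters, fits of the compared groups alone, a replicate block and leaving out libraries were the alternatives. The common biological coefficient of variation was 0.0246. Counts of the 4 genes per library ran from 2 to 174, so counting error is part of their spread, and its share was not measured.

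The members and gene lists were chosen with earlier results of these data known. Besides the 4 genes, the text names the nearest and overlapping tested genes, up to 3 called genes per list and uninduced comparison with a mean of at least 1 CPM, and the 3 genes with the highest Pearson r of log2 CPM to each member among genes with mean CPM of at least 1 and a log2 span of group means of at least 1. Paralogs and partners, and the genes found again after induction, were named outside this rule, with values known. Promoters were searched on both strands with 7 motifs.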

Additional observations from a re-analysis of the deposited data

Results flagged for a closer look

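Sgpp2 moved in opposite directions on induction in the activator and repressor lines. All 3 induced activator libraries lay above the uninduced ones (log2 value 1.22, SE 0.31), and all 3 induced repressor libraries lay below theirs (−0.87, SE 0.25). The activator value exceeded the repressor value by 2.09 on the log2 scale (SE 0.40), and this difference was not tested because the uninduced libraries chose the gene. Dose and time also differed between the lines.

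Dnm3 likewise moved in opposite directions in the activator line (2.06, SE 0.28) and the control line (−0.83, SE 0.28), with no overlap of induced and uninduced libraries in either. The activator value exceeded the control value by 2.89 (SE 0.40), a difference that was not tested for the same reason.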

How the results depend on the processing

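No result changed direction past its threshold under any alternative run. Genes called between the uninduced repressor and control lines (253) numbered 164 with total counts, 83 when scaled to mitochondrially encoded genes, 119 with DESeq2, 513 in a fit of these groups alone, and 425 without the 3 induced activator libraries, an alternative chosen after seeing the data. Mitochondrial scaling gave 763 genes between the induced repressor and control lines (1774), 32 in the control induction (75) and 717 in the repressor induction (1590). It moved the activator induction to −1.70 for Sytl2, −1.30 for Gbp7, 0.48 for Sgpp2 and 1.32 for Dnm3, and Sgpp2 between the induced activator and control lines to 0.046 (adjusted p = 0.888). With total counts these Sgpp2 values were 1.00 and 0.59 (adjusted p = 0.0649). Without the 3 induced activator libraries the control induction had 201 genes. Line differences found again after induction (10 repressor against control, 43 activator against control, 56 activator against repressor) numbered 113 and 167 in the last 2 at 1.5-fold, and 4, 15 and 19 at 4-fold. With DESeq2 they numbered 0, 12 and 18, because it gave no adjusted p to 24 of the 25, 80 of the 92 and 94 of the 131 starting genes. DESeq2 gave no adjusted p to Gbp7, Sgpp2 or Dnm3 between the induced repressor and control lines either, and its unadjusted p was 7.44e-09 for Gbp7 and 0.006 for Dnm3.

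Leaving out 1 library at a time gave 103 to 392 genes between the uninduced repressor and control lines, 1128 to 2044 between the induced ones and 35 to 160 in the control induction. Gbp7 between the uninduced repressor and control lines ran from −3.73 to −2.67 and Dnm3 in the repressor induction from −1.23 to −0.021. Dnm3 between the induced repressor and control lines ran from −2.00 to −0.79, Sgpp2 between the induced activator and control lines from 0.72 to 0.93, Gbp7 between the induced activator and repressor lines from −1.70 to −0.91, and the 10 repeated differences from 6 to 10.

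Correlations of same-numbered libraries lay between −0.034 and 0.027, under the 0.1 asked of a pairing, so the numbers were not taken as pairs. Every library correlated best with its own number between the uninduced repressor and control lines (3 of 3), a hint from the data only, and in no other comparison. A replicate block gave 321 genes between the uninduced repressor and control lines and 112 in the control induction, and changed no call of the 4 genes. Counting depth limits all 4 genes.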

Other observations

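Relatives of Gbp7 were also read along each line. In the repressor induction, where 9.81% of all genes were called, 2 of 9 tested guanylate-binding and immunity-related GTPases other than Gbp7 rose and none fell. Irgm1, which takes part in defence against intracellular bacteria, went from 30.7 ± 0.943 to 36.7 ± 0.914 CPM (SD, n = 3; edgeR, log2 fold change 0.26, SE 0.05, adjusted p = 0.000304), and Ifi47 from 2.41 ± 0.561 to 3.96 ± 0.464 CPM (0.71, SE 0.17, adjusted p = 0.00308). Gbp7 itself was at 0.353 and 0.492 CPM in the same groups, with overlapping libraries. Of the interferon signalling and response list, 4 of 21 rose, among them the RNA sensor Ddx58 (0.35, adjusted p = 1.17e-05) and Xaf1 (0.50, adjusted p = 0.000957). In the control induction, where 0.463% of all genes were called, edgeR called 0 of 9 and 0 of 21, with 1 and 7 at an unadjusted p under 0.05. There limma-voom and DESeq2 called 0, but DESeq2 gave no adjusted p to 12890 genes and could not call those. Genes of this paragraph were chosen after their values were seen.

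In the activator induction Irgm1 fell to 8.47 ± 1.04 CPM from 28.1 ± 1.34 (log2 fold change −1.72, SE 0.07, adjusted p = 2.78e-36). Ifi47 fell as well (−1.17, SE 0.25, adjusted p = 3.03e-05), as did the transcription factor Irf1 (−1.25, SE 0.06, adjusted p = 3.88e-34). The GTPases did not all fall: of the 9 tested other than Gbp7, edgeR called 3 lower and 2 higher. Gbp2 was higher (0.50, SE 0.21, adjusted p = 0.0285). Gm12250 went from 0.201 ± 0.0451 to 3.24 ± 0.543 CPM. Of the interferon list 9 of 21 fell and 4 rose, beside 75.3% of all genes called, relative to a median of all genes at 0.00 by TMM. That median was −0.22 by total counts and −0.74 when scaled to mitochondrially encoded genes, so the split between higher and lower genes moves with the scaling.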
